A study of Mus musculus with 14 samples.

Results

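The genes described here encode the cytosolic chaperonin CCT, also called TRiC, a barrel of stacked rings in which each of 8 different subunits takes 1 place per ring. The members were the 8 subunit genes Tcp1, Cct2, Cct3, Cct4, Cct5, Cct6a, Cct7 and Cct8, found by symbol among the 14248 genes with a listed transcript. Values were found for 7 of the 8. Cct6a had no value in any library, and 0 of its 7 transcripts in the GENCODE M21 annotation is marked as coding, so it was not analysed here. Each gene was represented by its listed transcript with the highest mean level. The libraries came from C57BL/6J mouse embryonic fibroblasts and held either footprints of ribosomes, 25 to 35 nt long (Ribo-seq), or RNA pieces, 40 to 60 nt long (RNA-seq). Groups were shMETTL3, a knockdown of the m6A methyltransferase METTL3 (2 libraries per assay), shABCF1, a knockdown of the ribosome-associated ATPase ABCF1 (2 per assay), Torin1, cells given 250 nM of this inhibitor of the kinase mTOR for 2 h (1 per assay), and the control Scram (2 per assay). All 14 lysates were made in cycloheximide at 100 µg per ml, and the labels name DMSO as vehicle without saying which libraries received it. Neither the promoter of the hairpins nor whether the Torin1 cells carried one is given in the sources used here. It is also not stated that replicates were grown apart. A p-value thus reflects how far libraries of a group lie from each other, after any replicate level that a fit removes. This distance may be technical.

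CCT binds unfinished polypeptides in its cavity, closes a built-in lid in an ATP-driven cycle and releases folded protein. Actin and tubulin, the main structural proteins of fibroblasts, depend on it, as do many proteins with WD40 repeats. Prefoldin, a smaller complex, hands nascent chains to the ring, and phosducin-like proteins act as its cofactors. Work in yeast divides the ring into a side that binds ATP tightly, made of the proteins of Tcp1, Cct2, Cct4 and Cct5, and a side that binds it weakly, made of those of Cct3, Cct6a, Cct7 and Cct8. mTOR controls translation most strongly for mRNAs with a 5′ terminal oligopyrimidine (TOP) stretch, a class that holds the ribosomal protein mRNAs.

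Because the TOP class is defined by the first bases of the mRNA, the bases around the annotated start of each measured subunit gene are shown, with Rpl11, the ribosomal protein gene of the lowest Torin1 value, as a contrast. Each sequence runs 5′ to 3′ on the gene's strand, with 10 bases before the annotated RefSeq start and 20 from it (GRCm38.p6), and capitals mark runs of at least 5 pyrimidines (C or T).
Tcp1, chr17:12916319-12916348, plus strand: CCCCTaCTTCCggcgTTTTCagTTTTTCgc
Cct2, chr10:117063833-117063862, minus strand: ccagcccgccacgcaggaggcggaaacccg
Cct5, chr15:31601827-31601856, minus strand: aaaaaagtcactgttgaaaagtaagtcgcg
Cct3, chr3:88297125-88297154, plus strand: caggTTTCTgtgtcaTTCCTgaggaggcag
Cct7, chr6:85451495-85451524, plus strand: tgggcggctcgcggggttgcgcgggatcca
Cct8, chr16:87495850-87495879, minus strand: ccgaggcccaTTCCCagcaggcagtgcgcg
Rpl11, chr4:136053374-136053403, minus strand: ccataaggccacggggccggaagTCTCCCT
Tcp1 held 4 such runs, Cct3 held 2 and Cct8 held 1, so 3 of the 6 measured subunit genes in the table had a run, against 46.4% of all 32851 entries. None of these subunit genes (0 of 6) had a C followed by 4 pyrimidines exactly at its annotated start, which 2.51% of all entries had on the gene's strand. Rpl11 did not have it there either, and it held 1 run, of 7 pyrimidines, that reaches the end of its window. Rpl11 is a single gene chosen by its Torin1 value. Other ribosomal protein genes were not counted apart, so these counts cannot compare the subunits with that class. Only the gene's strand was searched, and neighbouring runs do not overlap. Annotated starts lay 4 to 53 bases from the starts of the transcripts used for the levels, so these letters describe a window and not a measured mRNA end. Cct4 was named only.

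The deposited values are RPKM, a read density that divides out length and depth. The steps between values imply Ribo-seq depths of 1764404 to 5155237 reads and RNA-seq depths of 1197860 to 3802703. On the kept transcripts the subunits had 150 to 5087 footprint reads and 63 to 1708 RNA reads. Replicate 1 libraries list transcripts down to 1 read and often several per gene, whereas replicate 2 and Torin1 libraries start at 5 reads with 1 transcript per gene, so these are 2 sets of libraries, and Torin1 can be set beside Scram within its own set only in replicate 2. In the second set Lars2 took 35.4% to 41.6% of RNA-seq reads, against 0% in replicate 1. In shMETTL3, Mettl3 was at 12.3% and 38.7% of Scram in footprints and at 29% and 77.8% in RNA. In shABCF1, Abcf1 was at 34.2% and 50.6% of Scram in footprints and at 29.3% and 47.8% in RNA. Of 11 fibroblast markers 10 were listed in at least 1 library (Lum was at 0), and 8 were tested. Summed, they had 6290 to 10700 RPKM in footprints and 2380 to 4840 RPKM in RNA. The summed RPKM of immune, endothelial and neural markers stayed at or below 11.8 in each library. Epithelial markers, mostly Krt18, summed to 98.3 to 283 RPKM in footprints and 36 to 86.4 RPKM in RNA.

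Subunits of the ATP-binding side of the ring were measured in every library, each from almost all of its reads on 1 transcript. Tcp1, the alpha subunit (ENSMUST00000151287, GRCm38 chr17:12916382-12925067, plus strand, 12 exons, coding length 1671 bases), had Ribo-seq levels of 476 and 573 RPKM in shMETTL3, 434 and 575 in shABCF1, 401 in Torin1, and 460 and 493 in Scram. Its RNA-seq levels were 281 and 135 RPKM in shMETTL3, 218 and 112 in shABCF1, 138 in Torin1, and 337 and 152 in Scram. Torin1 footprints lay below both Scram values, and RNA-seq levels split by replicate set more than by group. Cct2, the beta subunit (ENSMUST00000047672, chr10:117051001-117063814, minus strand, 16 exons, coding length 1608), had Ribo-seq levels of 486 and 507 RPKM in shMETTL3, 334 and 441 in shABCF1, 344 in Torin1, and 662 and 436 in Scram. In RNA-seq it had 281 and 122 RPKM in shMETTL3, 177 and 88.8 in shABCF1, 108 in Torin1, and 308 and 122 in Scram. The Scram footprint values of Cct2 were the furthest apart on this side of the ring; both shMETTL3 values and 1 shABCF1 value lay between them.

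Cct4, the delta subunit, whose mutation causes a sensory neuropathy in rats (ENSMUST00000173867, chr11:22990519-23003780, plus strand, 14 exons, coding length 1620), had Ribo-seq levels of 396 and 393 RPKM in shMETTL3, 398 and 444 in shABCF1, 293 in Torin1, and 459 and 396 in Scram. Its RNA-seq levels were 198 and 104 RPKM in shMETTL3, 140 and 136 in shABCF1, 96.8 in Torin1, and 237 and 115 in Scram. Its Torin1 footprint level was the lowest of the 7 subunits in that library. Cct5, the epsilon subunit, whose human mutation causes a hereditary sensory neuropathy (ENSMUST00000022842, chr15:31590800-31601804, minus strand, 11 exons, coding length 1626), had Ribo-seq levels of 329 and 485 RPKM in shMETTL3, 439 and 543 in shABCF1, 433 in Torin1, and 567 and 487 in Scram. Its RNA-seq levels were 267 and 189 RPKM in shMETTL3, 197 and 124 in shABCF1, 170 in Torin1, and 305 and 176 in Scram. For footprints of Cct5, both shMETTL3 libraries and the Torin1 library lay below both Scram libraries, although shMETTL3 replicate 2 and Scram replicate 2 were nearly equal.

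On the other side of the ring, Cct8, the theta subunit (ENSMUST00000026704, chr16:87483326-87495873, minus strand, 15 exons, coding length 1647), had Ribo-seq levels of 201 and 407 RPKM in shMETTL3, 281 and 429 in shABCF1, 355 in Torin1, and 366 and 433 in Scram. Its RNA-seq levels were 221 and 91.5 RPKM in shMETTL3, 188 and 79.6 in shABCF1, 90 in Torin1, and 260 and 91.4 in Scram. Cct8 was the lowest subunit per length in RNA-seq in each of the 4 libraries of the second set.

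**Figure D1:**
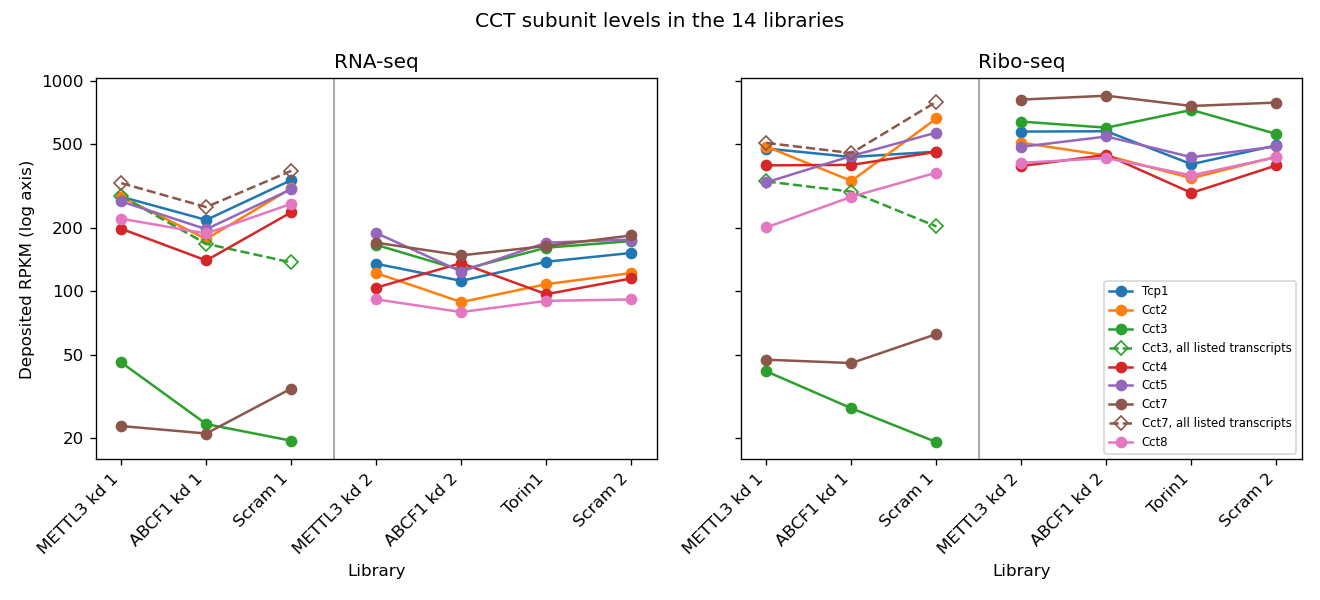
Deposited RPKM (log axis) of the 7 measured CCT subunits in each library (kd: knockdown; 1 and 2: replicates), RNA-seq on the left and Ribo-seq on the right, with a grey line between the 2 sets of libraries; each point is 1 library, lines only join points of 1 gene, and open diamonds sum all listed transcripts of Cct3 and Cct7. In the second set the 7 subunits lie within 1.86-fold to 2.07-fold of each other for RNA and within 1.98-fold to 2.59-fold for footprints.

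Cct3, the gamma subunit (ENSMUST00000001452, chr3:88297116-88321767, plus strand, 14 exons, coding length 1638), and Cct7, the eta subunit (ENSMUST00000032078, chr6:85451514-85468475, plus strand, 12 exons, coding length 1635), differed from the others in how their reads were assigned. In replicate 1 most of their reads were listed under another transcript of the gene, ENSMUST00000168062 for Cct3 and ENSMUST00000204592 for Cct7, so the levels below sum all listed transcripts. Cct3 then had Ribo-seq levels of 332 and 639 RPKM in shMETTL3, 297 and 598 in shABCF1, 726 in Torin1, and 203 and 558 in Scram. Its kept transcript alone had 41.6, 27.8 and 19.2 RPKM in replicate 1 of shMETTL3, shABCF1 and Scram. In RNA-seq the summed level of Cct3 was 283 and 166 RPKM in shMETTL3, 168 and 126 in shABCF1, 161 in Torin1, and 137 and 173 in Scram. Cct3 was the subunit whose Torin1 footprint level lay above both Scram values. Cct7 had summed Ribo-seq levels of 506 and 813 RPKM in shMETTL3, 453 and 848 in shABCF1, 758 in Torin1, and 795 and 787 in Scram. Its RNA-seq levels were 326 and 170 RPKM in shMETTL3, 251 and 148 in shABCF1, 164 in Torin1, and 373 and 184 in Scram. Summed this way, Cct7 had the highest footprint level of the ring in each of the 7 Ribo-seq libraries.

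**Figure D2:**
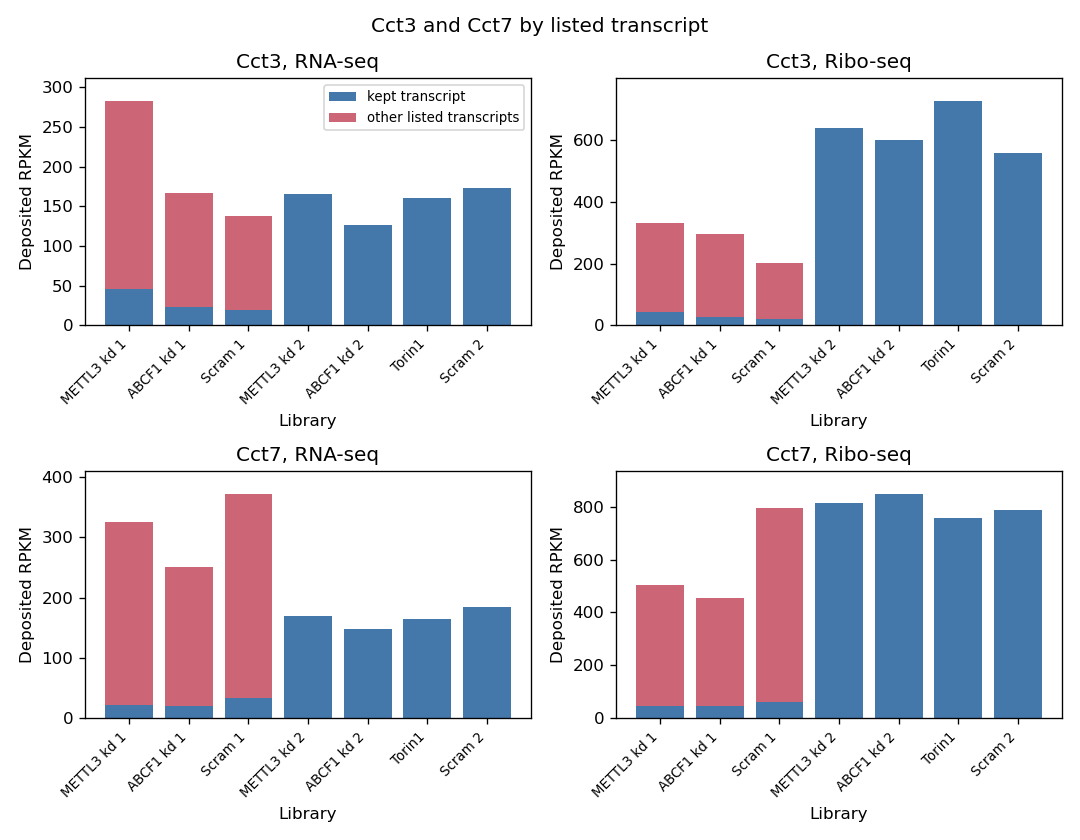
Deposited RPKM of Cct3 (top) and Cct7 (bottom) in each library, split into the transcript kept for the gene (blue) and its other listed transcripts (red); bars start at 0. In replicate 1 the kept transcript holds a small part of the level, for example 19.2 of 203 RPKM for Cct3 in Scram Ribo-seq, whereas the second set lists 1 transcript per gene.

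With all listed transcripts summed, the order of the 4 conditions gave 21 pairs of neighbours per assay over the 7 subunits. The ranges of 18 of these pairs overlapped in RNA-seq and of 14 in Ribo-seq, but these ranges span both library sets, which differ in level, so overlap says little about differences within a set. In Ribo-seq the Torin1 level lay below both Scram libraries for 6 subunits and above both for 1, Cct3. In RNA-seq it lay below both for 6 as well, before scaling of the libraries. The median RNA-seq RPKM of all tested genes was itself lower in Torin1, at 7.31, than in Scram, at 12 and 8.24. In Ribo-seq that median was 25.9 in Torin1, against 17.6 and 22.4 in Scram. Both shMETTL3 libraries lay below both Scram libraries for 1 subunit in Ribo-seq (Cct5) and for 0 in RNA-seq, and both shABCF1 libraries did so for 0 in either assay. The share of all genes in these positions was not counted, so these counts do not set the subunits apart from other genes.

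Per length, the ring was an abundant set of mRNAs of unequal levels. In the second set the kept transcripts of the subunits ranked between percentile 96.2 and 98.5 of the genes tested for RNA and between 93.4 and 98 for footprints. Within a library the highest and lowest footprint level differed 2.07-fold in shMETTL3, 1.98-fold in shABCF1, 2.59-fold in Torin1 and 1.99-fold in Scram (replicate 2 where there are 2). The SD of the log2 footprint level over the subunits was 0.37 in shMETTL3, 0.35 in shABCF1, 0.53 in Torin1 and 0.33 in Scram of that set. In RNA-seq this SD was 0.39, 0.32, 0.38 and 0.38 in shMETTL3, shABCF1, Torin1 and Scram. The footprint levels of the ring were thus more spread in the single Torin1 library than in the other libraries of its set, with no test, and its RNA levels were not. Cct7 and Cct3 were first and second in footprints in all 4 libraries, whereas the last place was held by Cct4 in shMETTL3, Torin1 and Scram and by Cct8 in shABCF1.

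The comparison of Torin1 with Scram asks which mRNAs lose ribosomes, relative to other mRNAs, when mTOR is inhibited. Footprints of 6 of the 7 subunits were lower in Torin1 than in Scram replicate 2, with a median log2 difference of -0.50, while their RNA was nearly level with Scram, with a median of 0.03. Log2 differences here and below are of log2(RPKM + 1) after scaling each library to a common median over tested genes. Of all 9534 genes tested in Ribo-seq 50% were lower, with a median of 0, a centre that the scaling sets. The differences are thus relative to the other genes, and a change shared by all genes would not show in them. Differences were -0.65 for Cct4, -0.56 for Cct2, -0.51 for Tcp1 and -0.39 for Cct5 on the ATP-binding side. They were -0.50 for Cct8, -0.27 for Cct7 and 0.17 for Cct3 on the other side. Footprints of 1 subunit, Cct4, were at least 1.5-fold lower, as were those of 14.6% of all genes.

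The read counts fix these ratios closely as far as counting error goes. For Cct4, 837 reads in Torin1 against 2471 in Scram gave a scaled ratio of 0.638 (95% exact binomial interval of the read ratio 0.589 to 0.69). For Cct2 it was 0.679 (0.631 to 0.731), for Tcp1 0.701 (0.655 to 0.749) and for Cct8 0.706 (0.656 to 0.758). The ratio was 0.765 (0.715 to 0.817) for Cct5 and 0.83 (0.789 to 0.873) for Cct7. Cct3 had 1.12 (1.06 to 1.19), the one interval lying above 1. In RNA-seq the 7 intervals all held 1, with ratios between 0.947 (0.829 to 1.08) for Cct4 and 1.11 (0.962 to 1.28) for Cct8. Such intervals cover counting error only, since PCR copies are not independent molecules, and they leave out any difference between cultures.

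Translational efficiency (TE), the Ribo-seq log2 difference minus that of RNA-seq, was lower in Torin1 than in Scram replicate 2 for 6 of the 7 subunits, with a median of -0.55, against 47.6% of all 9428 genes. Values were -0.65 for Cct8, -0.57 for Cct4, -0.56 for Cct2, -0.55 for Tcp1, -0.51 for Cct5, -0.28 for Cct7 and 0.09 for Cct3. As a level within a library, log2 TE of the subunits ran between 0.70 and 1.56 in Torin1, where the median of all genes was 1.32, and between 1.21 and 1.98 in Scram replicate 2, where it was 1.29. In RNA-seq 2 subunits were lower and 5 higher, with differences between -0.08 (Cct4) and 0.15 (Cct8), against 52.7% of all 9021 genes lower.

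The main limma fit, without a replicate block, set Torin1 against the mean of both Scram libraries, and so across the 2 sets. It does not test the differences from Scram replicate 2 alone. On kept transcripts its footprint changes were 1.38 for Cct7 and 2.4 for Cct3, against -0.27 and 0.17 above. The other subunits lay between -1.03 (Cct2) and -0.55 (Cct8). With 1 Torin1 library per assay, this fit took the spread from the other groups. It called 0 subunits and 0% of all genes for RNA, footprints and TE alike (lowest Benjamini-Hochberg adjusted p of a subunit 0.995, 0.891 and 1). At an unadjusted p under 0.05 it listed 0 subunits and 203, 304 and 253 genes in all. With the replicate block limma again called 0 subunits (lowest adjusted p 0.965, 0.309 and 0.76), among 0.111%, 1.32% and 0.552% of all genes called, and at an unadjusted p under 0.05 the block listed 1 subunit, Cct4 in Ribo-seq (adjusted p = 0.309), where 13.2% of all genes were below it. The size of the footprint difference also moved with the scaling: without scaling the subunit median was -0.29, where the median of all genes was 0.19, and with quantile normalization it was -0.22, with 5 of the 7 lower. In RNA-seq without scaling 7 of the 7 subunits were lower, with a median of -0.14, where that of all genes was -0.18. The TE median was -0.16 without scaling, where that of all genes was 0.39, and -0.26 with quantile normalization, with 5 of the 7 lower in each case. Without Scram replicate 2, and so against the Scram library of the other set, the medians were -0.58 in RNA, -0.76 in footprints and -0.15 in TE.

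Footprints of fibroblast markers were lower in the same comparison for 6 of 8 tested, with a median of -0.71, whereas their RNA was higher for 7 of 8, with a median of 0.21. The footprint sum of epithelial markers was 98.3 RPKM in Torin1 against 211 to 219 in Scram, and their RNA sum was 66.9 against 70.1 to 71.4. Whether the makeup of the cells bears on the CCT values was not tested. In bulk libraries fewer cells of a kind and less RNA per cell cannot be told apart.

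The genes around CCT gave a scale for these values. Footprints of the ribosomal protein mRNAs of the TOP class were lower in 22 of 22 tested, with a median log2 difference of -1.93 and a lowest value of -3.15 for Rpl11, and limma with the block called 14 of them (0 without it). Their highest value, -1.24 for Rpl19, lay below the lowest CCT value. Prefoldin subunits, which deliver substrates to the ring, were lower in 4 of 6, with a median of -0.26, a lowest value of -1.68 for Pfdn5 and a highest of 0.50 for Pfdn6. The mitochondrial chaperonin, made of Hspd1 and its lid Hspe1, had footprint differences of -0.50 and -0.45. Actin and tubulin genes, the main substrates, were lower in 11 of 12, with a median of -0.40 and a lowest value of -1.39 for Tuba1b. WD40 substrates had a median of -0.23 over 8 genes and phosducin-like cofactors of -0.34 over 3. Cytosolic HSP70 and HSP90 chaperones were lower in 4 of 8, with a median of -0.08 and a lowest value of -1.39 for Hspa8. Subunits of the proteasome 20S core, another stoichiometric barrel, were lower in 12 of 14, with a median of -0.40. All these list values are of footprints. The RNA median was -0.24 for WD40 substrates and -0.16 for actin and tubulin genes, and within -0.09 to 0.09 for the other lists above. TE medians were 0.11 for WD40 substrates, -0.37 for actin and tubulin, -0.54 for phosducin-like cofactors and -0.51 for the mitochondrial chaperonin. They were -0.18 for prefoldin, -0.31 for the proteasome core, 0.02 for HSP70 and HSP90 chaperones and -1.99 for the ribosomal proteins. No gene of these lists other than the ribosomal protein genes passed limma, with or without the block.

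**Figure D3:**
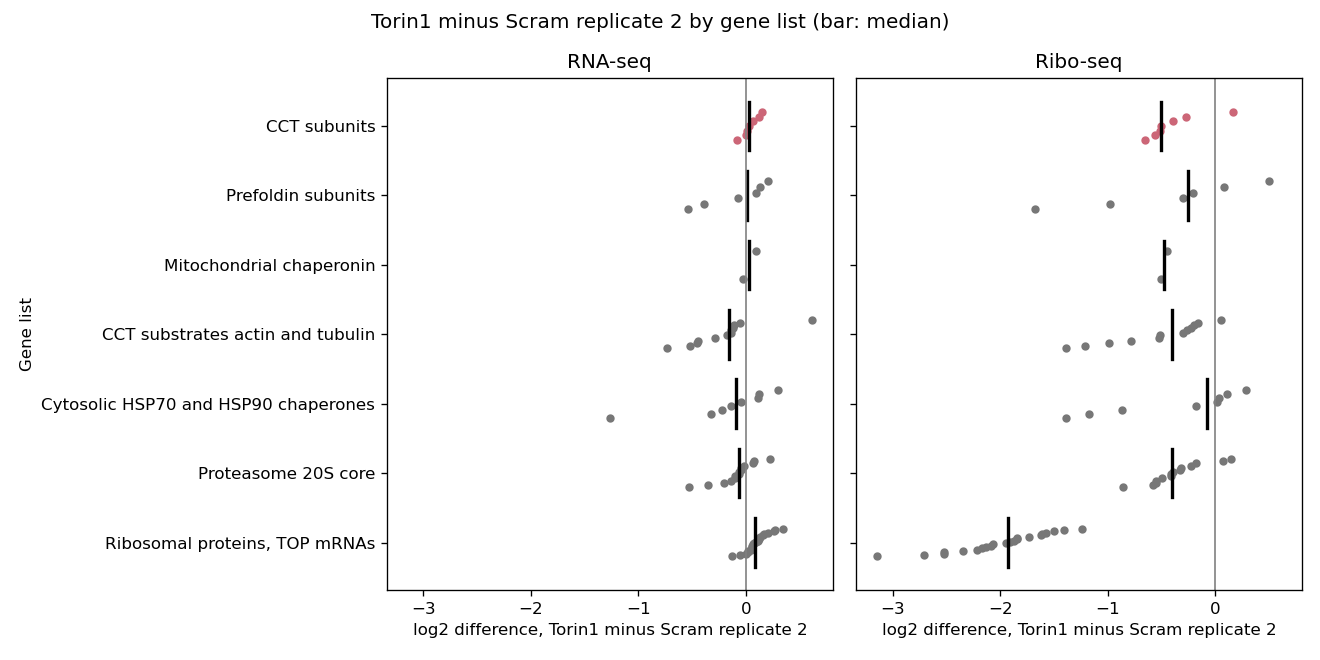
Log2 difference of scaled log2(RPKM + 1), Torin1 minus Scram replicate 2, for the CCT subunits (red) and the related gene lists (grey), RNA-seq on the left and Ribo-seq on the right; each point is 1 gene and black bars are medians. CCT footprint differences sit between -0.65 and 0.17, among those of the proteasome and the mitochondrial chaperonin and above the ribosomal proteins, whose median is -1.93.

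Knockdown of METTL3 was compared with Scram of the same replicate to ask how loss of the m6A writer bears on translation. CCT footprints gave opposite answers in the 2 replicates: the median log2 difference of the 7 subunits was -0.41 in replicate 1 and 0.15 in replicate 2. Lower in both replicates were 0 of 7 in Ribo-seq, where 25.2% of all genes were, and higher in both were 2 of 7, Tcp1 and Cct3, against 27.8%. Tcp1 differed by 0.03 and 0.32 in the 2 replicates and Cct3 by 1.07 and 0.30, or by 0.74 and 0.29 with all its transcripts summed. Cct8 differed by -0.88 and 0.01, Cct5 by -0.80 and 0.09, and Cct2 by -0.46 and 0.32. Cct4, at -0.23 and 0.09, and Cct7, at -0.41 and 0.15, had the same split, and Cct7 was at -0.62 and 0.14 with its transcripts summed. The sign of each of these 5 subunits turned between replicates. A replicate distance larger than the mean difference follows from that and adds nothing further.

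RNA of the subunits in shMETTL3 showed the same split at smaller size, with medians of -0.25 in replicate 1 and 0.08 in replicate 2. Lower in both replicates were 2 of 7 (Tcp1 at -0.29 and -0.04, Cct4 at -0.28 and -0.01), against 26.1% of all genes, and higher in both was 1, Cct3, against 25.4%. Cct3 RNA differed by 1.15 and 0.08 on its kept transcript and by 1.01 and 0.08 with all transcripts summed. Summed over transcripts, Cct3 RNA was at 283 RPKM in shMETTL3 against 137 in Scram in replicate 1, and at 166 against 173 in replicate 2. For TE, Cct5 (-0.58 and -0.14) and Cct8 (-0.62 and -0.12) were lower in both replicates, 2 of 7 against 23.6% of all genes. Tcp1 (0.32 and 0.35), Cct4 (0.05 and 0.10) and Cct7 (0.18 and 0.13) were higher in both, 3 of 7 against 29.2%, though Cct7 was at -0.41 in replicate 1 with all transcripts summed.

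In limma 0 subunits and 0% of all genes were called in shMETTL3 for RNA, footprints and TE alike (lowest adjusted p of a subunit 1). At an unadjusted p under 0.05 these fits listed 0 subunits, and 63, 243 and 46 genes in all. The fits with the block called 0 subunits as well, among 0%, 0.0105% and 0% of all genes, and listed 1 at an unadjusted p under 0.05, Cct3 in Ribo-seq, with a log2 change of 0.68 (SE 0.24, adjusted p = 0.321), where 13.2% of all genes were below it. With all transcripts summed that change of Cct3 was 0.51 (SE 0.21, adjusted p = 0.347).

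Knockdown of ABCF1 was compared in the same way, to ask how loss of this factor bears on translation. CCT mRNA was lower in shABCF1 mainly in replicate 1: the median RNA-seq difference was -0.70 there and -0.10 in replicate 2. In replicate 1, 5 of the 7 subunits were at least 1.5-fold lower, against 12.5% of all genes, with Cct2 at -0.87, Cct4 at -0.83, Cct7 at -0.75, and Tcp1 and Cct5 both at -0.70. In replicate 2 the same 5 genes gave -0.11, 0.57, 0.02, -0.10 and -0.16. Lower in both replicates were 3 of 7, Cct5, Cct2 and Tcp1, against 29% of all genes, and higher in both were 0, against 21.8%. Cct8 differed by -0.54 and 0.14, and Cct3 by 0.18 and -0.11. Only the first replicate thus showed a lower level of the ring as a whole, and Cct3 was not part of it.

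Footprints of the subunits in shABCF1 were lower in replicate 1 for 6 of 7, with a median of -0.50, where 47.9% of all genes were lower, and in replicate 2 for 0 of 7, with a median of 0.14, where 45.8% were. Cct2 had the largest difference, -1.12 in replicate 1, with 334 RPKM in shABCF1 against 662 in Scram, and 0.05 in replicate 2. Cct7 (-0.58 and 0.14), Cct8 (-0.51 and 0.02), Cct5 (-0.50 and 0.18), Cct4 (-0.34 and 0.20) and Tcp1 (-0.22 and 0.25) all changed sign between replicates. With all transcripts summed Cct7 was at -0.92 in replicate 1 and 0.13 in replicate 2. Cct3 was higher in both, at 0.39 and 0.13, 1 of 7 against 25.3% of all genes, and lower in both were 0 of 7, against 23%. TE was higher in both replicates for 4 of 7 (Tcp1 at 0.51 and 0.36, Cct3 at 0.24 and 0.25, Cct5 at 0.22 and 0.35, Cct7 at 0.19 and 0.12), against 30.9% of all genes. It was lower in both for 0, against 20.3%. With all transcripts summed the TE of Cct7 was negative in replicate 1, which left 3 of 7.

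The limma fits called 0 subunits and 0% of all genes in shABCF1 for RNA, footprints and TE (lowest adjusted p 1), with 0 subunits and 79, 106 and 37 genes at an unadjusted p under 0.05. With the block the counts of called subunits and genes were 0 as well (lowest adjusted p of a subunit 0.703, 0.732 and 0.998). Among the neighbouring lists, RNA of the mitochondrial chaperonin was also lower in replicate 1 of shABCF1, with a median of -1.08 and of -0.03 in replicate 2. Prefoldin RNA had medians of 0.39 and 0.09, and proteasome 20S RNA of -0.15 and 0.03. Both knockdowns share their Scram libraries, so a high or low value in Scram replicate 1 enters the replicate 1 differences of both. The Torin1 differences use Scram replicate 2 only, which the replicate 2 differences of the knockdowns use too. No gene of these lists passed limma in either knockdown.

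**Figure D4:**
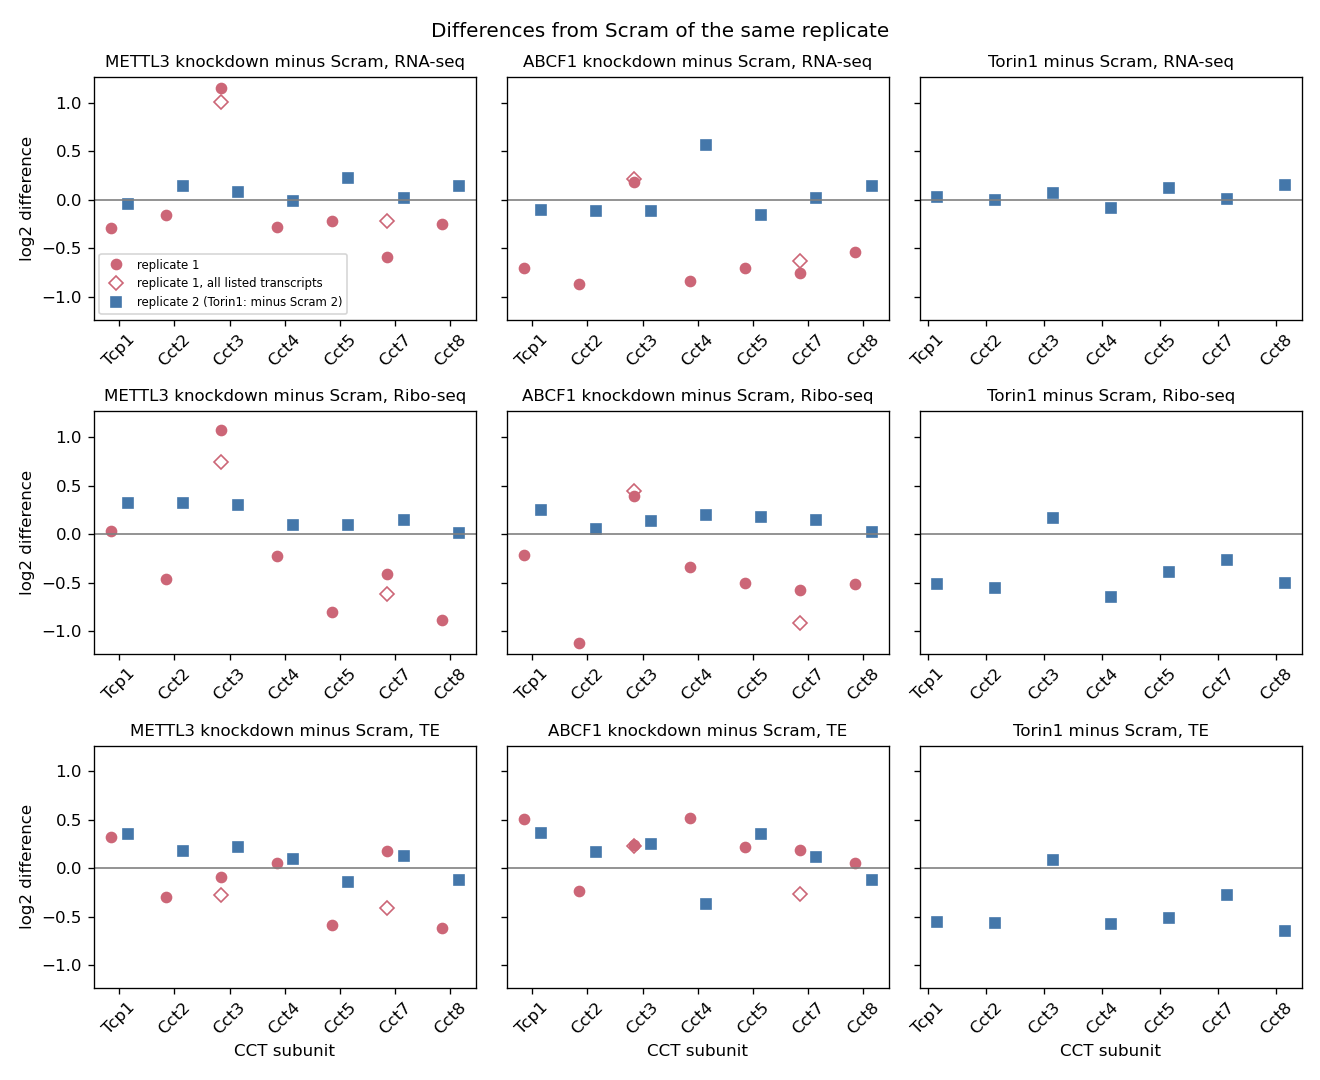
Log2 difference of scaled log2(RPKM + 1) for each CCT subunit, shMETTL3, shABCF1 and Torin1 from left to right, each minus Scram of the same replicate (Torin1 minus Scram replicate 2), for RNA-seq, Ribo-seq and TE from top to bottom; circles are replicate 1, squares replicate 2, and open diamonds replicate 1 of Cct3 and Cct7 with all listed transcripts summed. Replicates of the knockdowns lie on both sides of 0 for most subunits in Ribo-seq, whereas the Torin1 footprints of 6 of 7 lie below it.

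After centring within assay and library set, the correlation over the 14 libraries of each subunit's log2 level with the mean of the others was 0.89 for Tcp1, 0.89 for Cct2, 0.80 for Cct7, 0.76 for Cct5, 0.74 for Cct4 and 0.70 for Cct8. For Cct3 it was -0.20 on its kept transcript and -0.22 with transcripts summed. Over the 3891 genes outside the ring that were compared, the correlation with the mean of the ring had a median of 0.18 and quartiles of -0.17 and 0.50. These values describe libraries that share controls, depth and scaling, with no test. Genes outside the ring were compared with the mean of all measured subunits, so their values cannot be ranked against those of the subunits. They were listed in all 14 libraries with a mean RPKM of at least 10 in both assays. Of these 3891, the most like the ring's mean were Atp5b (0.96), the beta subunit of the mitochondrial ATP synthase, and Magoh (0.95), part of the exon junction complex. Next came Snrpc (0.95), a U1 splicing factor. They were followed by Aimp1 (0.94), a scaffold of the tRNA synthetase complex, and Srm (0.94), spermidine synthase.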

How the data were processed

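The deposited files hold 1 RPKM value per Ensembl transcript and library. The submitters' processing notes name cutadapt, Bowtie and the build GRCm38 for the authors' steps; versions and annotation are not given in the sources used. Of 22453 transcripts 22356 matched GENCODE M21 and 97 did not. RPKM times length came out as whole reads (tolerance 0.02) in 98.7% to 98.8% of footprint values, by coding length, and in 80.5% to 85.4% of RNA values, by transcript length, which gave each depth.

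Per gene the transcript with the highest mean RPKM was kept. Where it was not listed in a library, it was treated as having no reads there. Libraries were scaled to a common median and log2(RPKM + 1) was taken, a scale that understates changes of low genes. Genes were tested if listed in at least 0.5 of a fit's libraries with a mean RPKM of at least 1 (9021 in RNA-seq, 9534 in Ribo-seq, 9428 for TE). Groups were fitted with limma 3.58.1 (eBayes with trend) in R 4.3.3 over all libraries of an assay, or over both assays with an interaction for TE. A gene was called at a Benjamini-Hochberg adjusted p under 0.05. The fit was also run on simulated data, but the outcome is not given here. The size of change that the fit can call is thus not stated, and a gene that was not called may still differ. The fits took the lone Torin1 library to vary like the other groups.

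The fit without a replicate block was the main one. Its p-values include the distance between the 2 sets of libraries. For shMETTL3 footprints the SE of Cct3 was 2.34 without the block and 0.24 with it, and that of Cct2 was 0.4 and 0.3. The replicate numbers pair the libraries: deviations of replicate 1 libraries from their group means correlated at 0.82 to 0.88 in RNA-seq and at 0.91 to 0.94 in Ribo-seq. Torin1 took the block level of replicate 2, whose listing rule it shares. Alternatives were other pseudocounts, scalings, filters, transcript sums, the block and leaving out each library. No values were identical between libraries. The members, the gene lists and the naming rule (all members, the highest and lowest member of each other list, and the 5 genes most like the ring's mean) were chosen with earlier results of these data known. Rpl11 and the markers named by a count were named beside that rule.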

Additional observations from a re-analysis of the deposited data

How the results depend on the processing

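The number of called CCT subunits was 0 in each of the 111 alternatives run, the replicate block included. The main fits of both knockdowns called 0% of all genes too, so a count of 0 does not set the subunits apart. The share of all genes called is not given here for each alternative. The median Torin1 RNA-seq difference, 0.03, was -0.58 without Scram replicate 2, which sets Torin1 against a library of the other set. The Torin1 medians do not use Scram replicate 1, so leaving it out cannot change them. The Torin1 TE median, -0.55, was -0.16 without scaling, -0.26 with quantile normalization, -0.77 with no filter on low values and -0.15 without Scram replicate 2. The Torin1 footprint median, -0.50, was -0.76 without Scram replicate 2. In shMETTL3, leaving out a library gave the medians of the other replicate, -0.25 to 0.08 in RNA-seq, -0.41 to 0.15 in Ribo-seq and -0.09 to 0.13 in TE. In shABCF1 they were -0.70 to -0.10, -0.50 to 0.14 and 0.17 to 0.22. The shABCF1 TE median, 0.16, was 0.11 with a pseudocount of 5, 0.33 without scaling, 0.12 with no filter, 0.06 with transcripts summed and 0.07 without Cct3 and Cct7, an alternative chosen after seeing the data. The mean SD over the ring, 0.87 in RNA-seq and 0.96 in Ribo-seq on kept transcripts, was 0.35 and 0.43 with transcripts summed and 0.30 and 0.27 without Cct3 and Cct7. On deposited footprint RPKM the SD in Scram replicate 1 was 1.93 on kept transcripts and 0.64 with transcripts summed. In Scram replicate 2 it was 0.33 either way. The causes of the shifts in this paragraph were not tested. Of 546 alternatives for single subunits, 492 stayed within the spread between replicates and 54 moved further. Counted over the same 546, 55 turned the sign. Leaving out 1 replicate of a knockdown always counted as within the spread, because the spread was the SD of the 2 replicate differences. Reads on a kept transcript were as few as 63, for Cct3 RNA in shABCF1 replicate 1, where the gene had more reads under another transcript. Having 1 Torin1 library per assay allows no estimate of its own spread.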

Other observations

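The chaperonin-like relatives of CCT, which share its fold, had values of their own. Mkks, a chaperonin-like protein of the Bardet-Biedl complex, had log2 differences of -1.08 in footprints and 0.42 in RNA between Torin1 and Scram replicate 2. In shMETTL3 the footprints of Mkks differed from Scram by 0.57 and 0.65 in the 2 replicates and its RNA by 0.35 and 0.42. Bbs10 had Torin1 differences of 0.50 in footprints and -0.80 in RNA. Bbs12 RNA differed by -0.32 and -2.09 in the 2 replicates of shMETTL3 (SE of the mean change 0.89 in the main fit). Levels and reads of these relatives are not given here. A gene not listed in a library was treated as having no reads there, so large differences can come from values near the listing floor, which was not tested. Cct6b, a paralog of Cct6a known from testis, was tested in Ribo-seq, with a Torin1 difference of 0.16. None of these values passed limma, where the lowest adjusted p of these 4 genes with the block was 0.371, for the TE of Mkks in Torin1.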
